A study of Mus musculus with 10 samples.

Results

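The genes described here encode the chemokines and the chemokine receptors of the mouse. They were chosen by name and type as protein-coding genes whose symbol begins with Ccl, Cxcl, Ccr, Cxcr, Xcr, Xcl or Ackr and a digit, together with Cx3cl1 and Cx3cr1. The rule took 67 of the 54532 genes in the deposited table, of which 22046 were protein-coding, and the 67 carried 61 distinct symbols. Of the 67 genes, 44 were ligands and 23 were receptors. The kidneys came from wild-type male mice on the C57BL/6 background, whose left ureter was tied at 8 weeks of age (unilateral ureteral obstruction, UUO) and which were killed 14 days later. The DMM group received dimethyl malonate, an ester of malonate used to inhibit succinate dehydrogenase, at 40 mg/kg into the peritoneum every other day, and the control group received PBS. Each group had 5 mice, with a single kidney library per mouse. Every kidney was obstructed, so the values compare DMM with PBS within obstruction and hold nothing on kidneys without it. Reads counted on genes summed to between 16457495 and 18078777 per PBS library and to between 15722527 and 19475833 per DMM library.

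Chemokines are small proteins that guide leukocytes into tissue by binding G protein-coupled receptors on the moving cell. Inflammatory chemokines are made by injured epithelium, endothelium, fibroblasts and macrophages, whereas homeostatic ones place lymphocytes and progenitors. Several of the inflammatory ones, among them the ligands of CXCR3, are induced by interferons, and in the obstructed kidney chemokines are known for drawing in monocytes and T cells. Atypical receptors bind chemokines without the usual G protein signal and remove or redistribute them.

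Not all libraries resembled their group. Written as weighted sums of the counts, the deposited mean of the PBS group left out replicate 3 and that of the DMM group left out replicate 1, each with weight 0. The methods state 5 replicates per group, which differs from these means, and no reason for the weights was given in the sources used here. Results are therefore given over the 10 libraries as labelled, over the 8 that remain without those libraries, or over both. DMM replicate 1 was the highest DMM library for 7 of 7 interferon-induced members tested and lay within the PBS range for 7 of 7. Leaving it out therefore widens the difference between groups for these genes by construction. Among the 37 other tested members, DMM replicate 1 was the highest DMM library for 16 and lay within the PBS range for 31. PBS replicate 3 held the most proximal tubule RNA of the PBS kidneys, with 10956 CPM summed over 10 marker genes against 1554 to 4189.8 CPM in the others (CPM is the count scaled by library size after TMM). This library was the lowest PBS library for 4 of 7 interferon-induced members tested and for 11 of the 37 others. For Ccl28 it was the highest PBS library, at 10.2 CPM against 3.77 to 5.34 CPM in the other controls. Leaving it out also widens the difference between groups by construction for those 4 interferon-induced members and for Ccl28. DMM replicate 4 differed most from its group, with a chi-square per degree of freedom of 147 to 169 against each other DMM library and 9.21 to 80.9 among the rest of that group. It stayed in both sets.

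Levels per length are given as the authors' deposited FPKM. The highest PBS median belonged to Cx3cl1, at 104 FPKM, followed by Cxcl14 at 95.5, Cxcl16 at 65.8, Cxcl10 at 56.03 and Ccl12 at 41.9 FPKM. The PBS ranges of Cx3cl1 (94.8 to 122 FPKM) and Cxcl14 (59.1 to 126 FPKM) overlapped, so their order is not settled by these kidneys. Among receptors, Ackr3 led with a PBS median of 22.2 FPKM, next to Cx3cr1 at 21.6, and their ranges also overlapped. In the DMM kidneys the median of Cxcl10 was 10.2 FPKM and that of Cx3cl1 113 FPKM.

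Of the 67 genes, 44 passed edgeR's filter on low counts in both sets of libraries and 23 did not. The filter's minimum was reached in every library by 36 of them. Ccl4, Ccl8, Ccl27a, Ccr4 and Xcl1 reached it in every PBS library but not in every DMM library of the 10, and these 5 and Cxcl3 did so among the 8. Ccr4 reached it in 0 DMM libraries of the 8, so there the PBS group alone carried it through. A gene carried in this way tends to be higher in PBS, so the counts below describe the tested members and support nothing further. Of the 23 not tested, 15 had at most 10 counts in every library, and 4 of these had none at all. The 23 were Ackr1, Ccl1, Ccl24, Ccl26, Ccl27b, Ccr1l1, Ccr3, Ccr6, Ccr8, Ccr10, Cxcl13, Cxcl15, Cxcr1, Cxcr5, the genes named Ccl19, Ccl21a and Ccl21b on chromosome 4, and 6 copies of Ccl19, Ccl21b, Ccl21c and Ccl27a on unplaced scaffolds. The highest count of any was 34, for Ccr3 in PBS replicate 4.

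Over all 10 libraries, 0 of 44 tested members were called by edgeR's quasi-likelihood test, where a call needs a fold change over 1.5 and, after Benjamini-Hochberg adjustment, a p below 0.05. The share called among all 16505 tested genes was 0%. At an unadjusted p under 0.05 with the same fold change, 14 members were lower and 1 was higher in DMM kidneys, against 4.11% and 1.91% of all tested genes. DESeq2 called 2 members lower, Cxcl9 and Ccr7, against 0.206% of all tested genes. The DMM values lay below every PBS value for 0 tested members, against 1.16% of tested genes. Without DMM replicate 1, edgeR called 8 members lower, among them Cxcl9, Cxcl10, Ccl7, Ccl9, Ccl12, Ccl22 and Ccr7, against 2.60% of 16760 tested genes.

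Over the 8 libraries, edgeR called 10 members lower and 1 higher, against 3.56% and 2.73% of 16550 tested genes. When only library size was used for scaling, the genes called across the table split into 700 lower and 276 higher, against 590 and 452 with TMM, and the members into 11 and 1. The members called lower included Cxcl10, Cxcl9, Ccl12, Ccl7, Ccl9, Ccl6, Ccl22, Ccr7 and Cxcr4, and the member called higher was Ccl28. At an unadjusted p under 0.05, 21 were lower and 1 was higher, against 7.24% and 6.45% of tested genes. Groups did not overlap for 18 members lower and 1 higher in DMM, against 10.6% and 9.45% of tested genes. DESeq2 called 16 lower and 1 higher, against 5.40% and 4.65% of tested genes, and these included all 11 that edgeR called. The edgeR count leaned on single libraries. It was 7 without PBS replicate 1 or PBS replicate 4 (3.53% and 2.84% of all tested genes), 8 without PBS replicate 2 (3.23%) and 5 without PBS replicate 5 or DMM replicate 5 (2.41% and 2.78%). It was 6 without DMM replicate 3 (2.93%), 14 without DMM replicate 2 (5.61%) and 20 without DMM replicate 4 (14.3%). The calls of Cxcl10, Ccl12, Ccl9 and Ccr7 were kept whichever of the 8 libraries was left out, and those of the other 7 ended without at least 1. All 11 calls ended when the replicate number was fitted as a block. In bulk tissue, fewer cells of a type and less RNA per cell cannot be told apart.

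**Figure D1:**
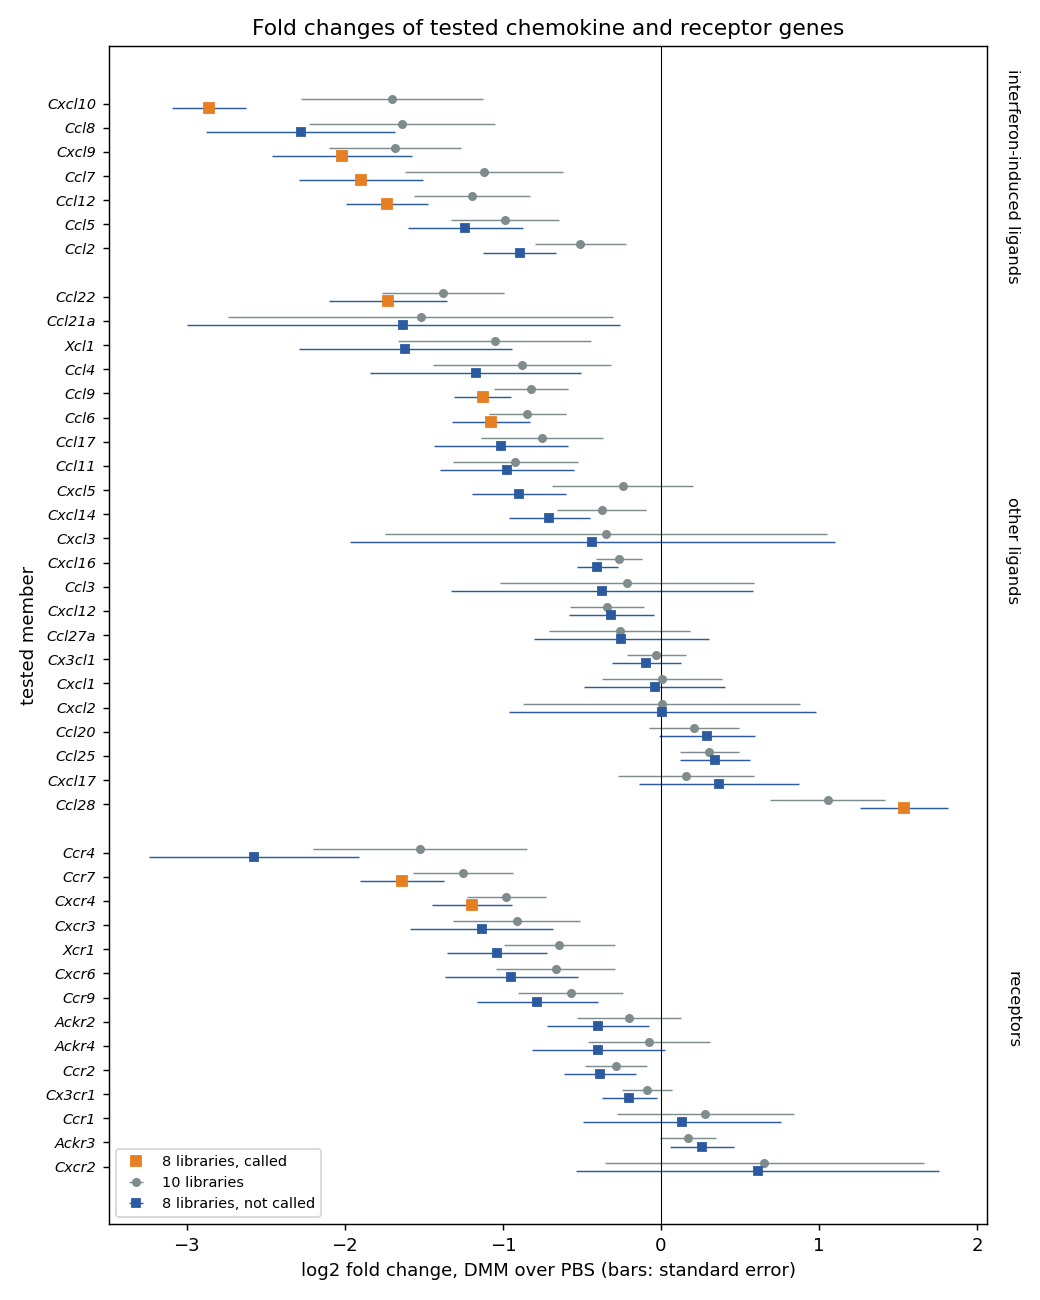
Log2 fold changes of DMM over PBS for 43 of the 44 tested members, over 10 libraries (grey circles) and over 8 (squares, orange where called by edgeR), with bars for the standard error. All 7 interferon-induced ligands have fitted values below 0 in both sets, and Ccl28, at 1.54 over the 8 libraries, is the member called higher.

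The interferon-induced ligands were compared with the other members. The list holds 7 genes of the family, the CXCR3 ligands Cxcl9 and Cxcl10, the T cell chemokine Ccl5, and the monocyte chemoattractant proteins Ccl2, Ccl7, Ccl8 and Ccl12. Their median log2 fold change was −1.20 over 10 libraries and −1.90 over 8. For the 37 tested of 60 other members it was −0.34 and −0.43, and for all tested genes 0.02 in both sets. Over the 8 libraries 4 of 7 interferon-induced ligands and 6 of 37 others were called lower by edgeR, against 3.56% of all tested genes, and 7 and 11 did not overlap, against 10.6%. At an unadjusted p under 0.05 the lower counts over 10 libraries were 6 of 7 and 8 of 37, against 4.11% of all tested genes. The median of the others over the 8 libraries falls on Cxcl3, a gene carried by the libraries numbered 4. It was −0.80 without PBS replicate 1, −0.75 without PBS replicate 2, −0.82 without DMM replicate 2, −0.89 without DMM replicate 4 and −0.68 without DMM replicate 5. It was −0.68 with library size alone, −0.78 with a narrower interferon-induced list of Cxcl9, Cxcl10 and Ccl5, and −0.93 when every gene with at least 1 count was fitted, a choice that moved the value over 10 libraries to −0.55. The difference between the lists was not tested.

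Cxcl10 (gene ENSMUSG00000034855, chromosome 5, 92346638 to 92348889, mm10) encodes a ligand of CXCR3, the receptor of activated T cells and NK cells. Its normalised counts were 127, 113, 116, 169 and 199 CPM in PBS replicates 1 to 5 and 138, 26.7, 23.03, 17.3 and 16.8 CPM in DMM replicates 1 to 5. DMM replicate 1 stood among the PBS kidneys, and the other 4 DMM kidneys stood below every PBS kidney. The mean was 152 ± 39.5 CPM (SD, n = 4) in PBS and 20.96 ± 4.74 CPM (SD, n = 4) in DMM over the 8 libraries. The fitted log2 fold change was −1.70 (SE 0.58) over 10 libraries, with an edgeR adjusted p of 0.385, and −2.86 (SE 0.23) over 8, with an edgeR adjusted p of 0.000238. Without DMM replicate 1 alone it was −2.79, with an edgeR adjusted p of 8.87e-05. Cxcl10 overlaps Art3 on the opposite strand, and since strand use in counting was not stated, reads of the pair could be mixed. Art3 had at most 140 counts in any library.

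Cxcl9 (ENSMUSG00000029417, chromosome 5, 92321347 to 92328079), the neighbour of Cxcl10 and a CXCR3 ligand typical of interferon gamma, was at 31.2, 26.6, 37.3, 18.4 and 71.4 CPM in PBS and 21.1, 13.8, 6.17, 9.83 and 6.68 CPM in DMM kidneys, in replicate order. PBS replicate 5 was the highest and PBS replicate 4 the lowest of the controls, and only DMM replicate 1 reached into their range. For this gene the log2 fold change was −1.68 (SE 0.42) over 10 libraries (edgeR adjusted p = 0.378) and −2.02 (SE 0.44) over 8 (edgeR adjusted p = 0.0293). Over the 8 libraries the call ended without PBS replicate 1, 2 or 5 or DMM replicate 3 or 5, with edgeR adjusted p values of 0.0549 to 0.0901. Cxcl11, the other CXCR3 ligand, is typed as a polymorphic pseudogene in the table and so fell outside the rule. It was at 2.33, 1.88, 3.87, 3.03 and 4.698 CPM in PBS and 2.83, 0.629, 1.02, 0 and 0.121 CPM in DMM kidneys, with a log2 fold change of −1.77 (SE 0.76) over 10 libraries and −2.72 (SE 0.77) over 8 that was not called (edgeR adjusted p = 0.0687).

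Of the monocyte chemoattractant proteins, Ccl2, Ccl7 and Ccl12 attract monocytes mainly through CCR2. Ccl12 (ENSMUSG00000035352, chromosome 11, 82101845 to 82103400) was at 22.7, 21.9, 21.2, 28.6 and 28.6 CPM in PBS and 23.05, 9.38, 7.47, 4.16 and 9.65 CPM in DMM kidneys. DMM replicate 1 matched the controls, DMM replicate 4 was the lowest, and the 4 DMM kidneys other than replicate 1 lay below all PBS kidneys. DMM over PBS, the log2 fold change was −1.20 (SE 0.36) over 10 libraries (edgeR adjusted p = 0.378) and −1.73 (SE 0.26) over 8 (edgeR adjusted p = 0.00707). Ccl7 was at 11.4, 11.99, 9.26, 24.2 and 25.8 CPM in PBS and 18.4, 8.31, 3.73, 4.46 and 3.22 CPM in DMM kidneys, with DMM replicate 1 again inside the PBS range and the others below it. It fell over the 8 libraries, by a log2 fold change of −1.90 (SE 0.39, edgeR adjusted p = 0.0231), a call that ended without PBS replicate 4 or 5 or DMM replicate 3 or 5 (edgeR adjusted p = 0.0716 to 0.0798). Over 10 libraries the value was −1.12 (SE 0.50).

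Ccl8 and Ccl2 were not called by edgeR in either set, but DESeq2 called both lower over the 8 libraries (DESeq2 adjusted p = 0.001705 for Ccl8 and 0.00602 for Ccl2). Ccl8 was at 11.9, 17.5, 6.17, 16.7 and 15.7 CPM in PBS and 9.06, 7.11, 1.58, 0.543 and 3.52 CPM in DMM kidneys. PBS replicate 3 was lower than DMM replicates 1 and 2, and without replicates PBS 3 and DMM 1 the groups did not overlap. Its log2 fold change was −1.64 (SE 0.59) over 10 libraries and −2.28 (SE 0.60) over 8 (edgeR adjusted p = 0.0538), and the edgeR adjusted p was 0.0181 without DMM replicate 2 and 0.00676 without DMM replicate 4. Ccl2 was at 29.2, 33.5, 23.9, 34.3 and 49.8 CPM in PBS and 40.9, 24.8, 23.7, 14.2 and 16.2 CPM in DMM kidneys. DMM replicates 1 and 2 exceeded PBS replicate 3, the lowest control. For Ccl2 the log2 fold change was −0.51 (SE 0.29) over 10 libraries and −0.89 (SE 0.23) over 8 (edgeR adjusted p = 0.0526, and 0.0219 without DMM replicate 4).

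Ccl5, made by T cells and NK cells among others, was at 15.1, 14.3, 16.5, 12.7 and 23.7 CPM in PBS and 13.7, 12.1, 6.34, 3.498 and 5.95 CPM in DMM kidneys. DMM replicates 1 and 2 lay close to the lowest control, and DMM replicates 3 to 5 below it. Its log2 fold change of −0.99 (SE 0.34) over 10 libraries and −1.24 (SE 0.36) over 8 was not called by edgeR (edgeR adjusted p = 0.387 and 0.0787), while DESeq2 called it lower over the 8 (DESeq2 adjusted p = 0.0114). Without DMM replicate 2 the edgeR adjusted p over the rest of the 8 libraries was 0.0228, and without DMM replicate 4 it was 0.0316.

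**Figure D2:**
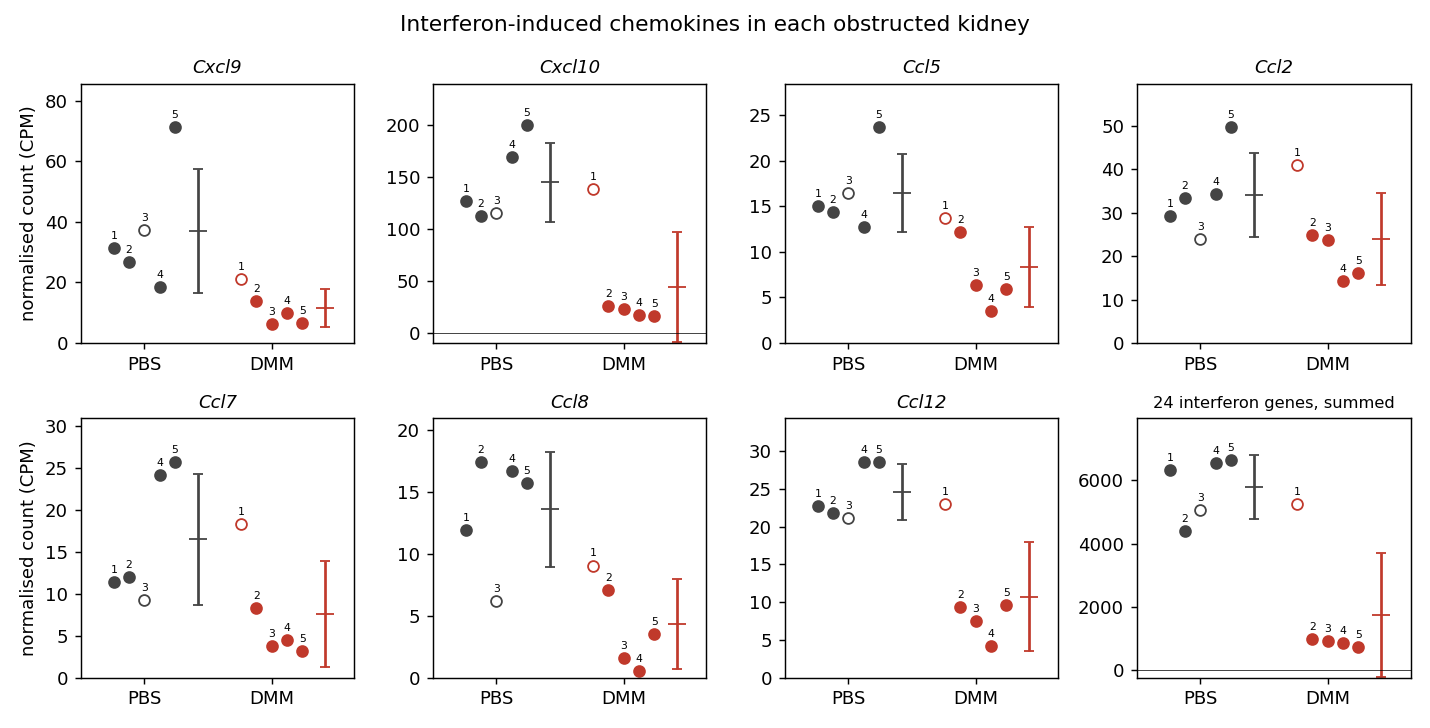
Normalised counts (CPM) of the 7 interferon-induced chemokines and the sum of 24 reference interferon genes in each library, numbered by replicate, with mean and SD over 5 libraries at the right of each group and open circles for PBS replicate 3 and DMM replicate 1. In Cxcl10 and in the reference sum, DMM replicate 1 sits with the PBS kidneys, at 138 CPM and 5250.1 CPM.

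A reference list of 24 interferon response genes without chemokines was read as well. Its summed level was 6332, 4392, 5074, 6559 and 6629 CPM in PBS and 5250.1, 972, 911, 875 and 729 CPM in DMM replicates 1 to 5, and its most abundant gene was Irf7. All 24 were called lower over the 8 libraries, against 3.56% of all tested genes. Over 10 libraries edgeR called 0, with 24 lower at an unadjusted p under 0.05, against 4.11%. The median of the 7 chemokines over the 8 libraries was −1.90 and that of this list −2.66. T cell markers were also lower in DMM replicates 3 to 5, with sums of 82.01, 92.6, 85.1, 67.8 and 125 CPM in PBS and 78.02, 68.7, 27.8, 32.1 and 35.2 CPM in DMM kidneys over 15 genes. Cd4 was the most abundant of them, none was at 0, and 2 of 15 were called lower over the 8 libraries (3.56% of all tested genes). The sum of 11 macrophage and monocyte markers was 2359.9, 2446, 1892, 2201 and 2589.6 CPM in PBS and 2254, 1546, 1236, 964 and 1249 CPM in DMM kidneys, led by Lyz2, with none at 0 and 4 of 11 called lower over the 8 libraries (3.56% of all tested genes). Over 10 libraries edgeR called none of all tested genes, so every call of a marker here and below holds for the 8 libraries alone. The part of these cells in the chemokine values was not tested.

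Further CC chemokine genes, among them ligands of CCR1, lie with Ccl5 on chromosome 11. Ccl9, a CCR1 ligand made by macrophages, was at 71.2, 54.9, 55.5, 63.4 and 87.2 CPM in PBS and 61.2, 28.6, 31.2, 40.3 and 26.4 CPM in DMM kidneys. DMM replicate 1 alone reached the controls. Ccl9 fell over the 8 libraries, with a log2 fold change of −1.13 (SE 0.18, edgeR adjusted p = 0.00953), and over 10 libraries the value was −0.82 (SE 0.23, edgeR adjusted p = 0.378). Ccl6, likewise a CCR1 ligand, was at 69.9, 51.4, 54.2, 103 and 77.2 CPM in PBS and 54.9, 31.7, 28.97, 50.96 and 31.8 CPM in DMM kidneys. DMM replicate 4 came within 1 CPM of PBS replicate 2, the lowest control, and DMM replicate 1 exceeded PBS replicates 2 and 3. Over 10 libraries the log2 fold change of Ccl6 was −0.84 (SE 0.24, edgeR adjusted p = 0.378). It was −1.08 (SE 0.25) over 8 (edgeR adjusted p = 0.0343), and the call ended without any of PBS replicates 1, 4 and 5 or DMM replicates 2, 3 and 5 (edgeR adjusted p = 0.0733 to 0.102). Ccl6 overlaps the transcript E230016K23Rik on the opposite strand, which had at most 55 counts in any library. Ccl3 and Ccl4, the macrophage inflammatory proteins, were not called, with log2 fold changes of −0.37 (SE 0.95) and −1.17 (SE 0.67) over the 8 libraries.

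**Figure D3:**
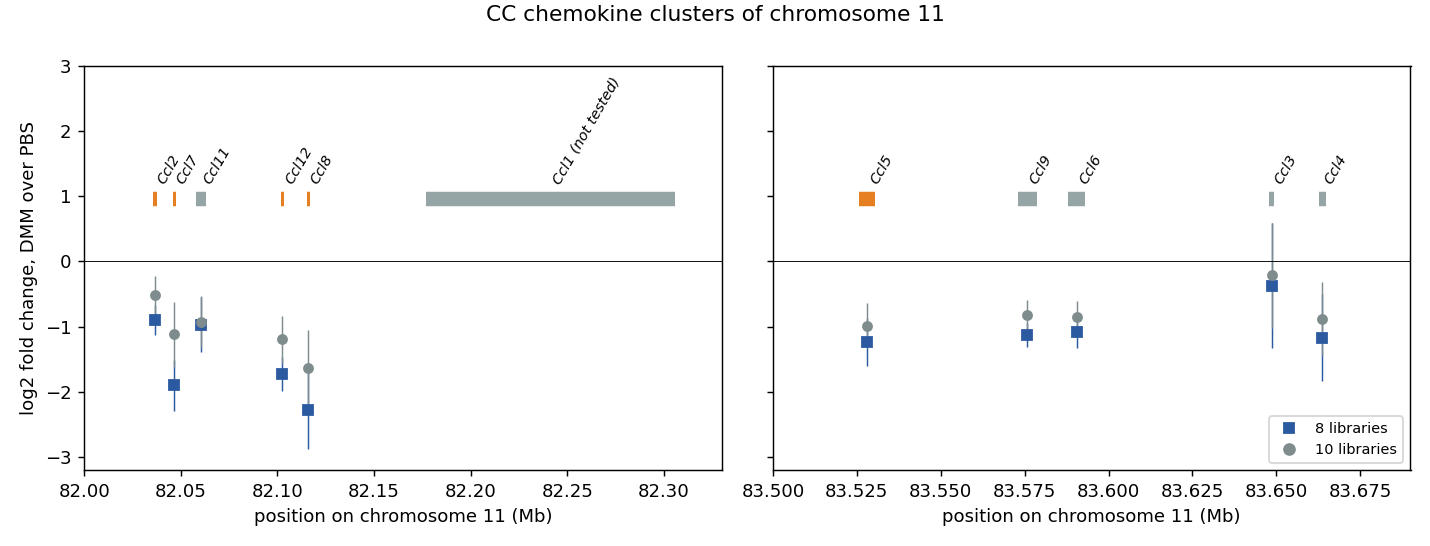
Log2 fold changes of DMM over PBS at the 2 clusters of CC chemokine genes on chromosome 11 (mm10), over 10 libraries (grey circles) and 8 libraries (blue squares), with bars for the standard error and gene bodies drawn above (orange for interferon-induced members). Fitted values are below 0 for all 10 tested genes shown, from −2.28 for Ccl8 to −0.37 for Ccl3 over the 8 libraries.

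On chromosome 11, Ccl2, Ccl7, Ccl11, Ccl12, Ccl8 and Ccl1 lie between 82035571 and 82305690, and Ccl5, Ccl9, Ccl6, Ccl3 and Ccl4 between 83525778 and 83664683. Each of these clusters held 5 tested members, of which 2 were called lower over the 8 libraries, against 3.56% of all tested genes. On chromosome 5, both Cxcl9 and Cxcl10 were called lower, between 92321347 and 92348889. Of 4 tested neutrophil-attracting genes between 90759360 and 90905938, 0 were called by edgeR over the 8 libraries. At an unadjusted p under 0.05, 1 of the 4 was lower, and DESeq2 called 1 lower, Cxcl5 in both cases. The shares of all tested genes were 7.24% and 5.40%. Gene neighbours share sequence and regulation and are not independent of each other.

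Ligands of CCR4 and CCR3 are produced mainly by dendritic cells, macrophages and stroma. Ccl22 (ENSMUSG00000031779, chromosome 8, 94745590 to 94751699), a CCR4 ligand of dendritic cells and macrophages, was at 14.6, 13.4, 13.9, 5.79 and 16.2 CPM in PBS and 9.49, 4.66, 1.92, 4.46 and 4.07 CPM in DMM kidneys. PBS replicate 4 was far below the other controls and close to DMM replicates 2, 4 and 5. The fitted log2 fold change was −1.38 (SE 0.39) over 10 libraries (edgeR adjusted p = 0.378) and −1.73 (SE 0.37) over 8 (edgeR adjusted p = 0.0276), and the call ended without PBS replicate 1, 2 or 5 or DMM replicate 3 or 5 (edgeR adjusted p = 0.0651 to 0.0939). Ccl17, the other CCR4 ligand, was at 5.66, 5.41, 5.33, 3.56 and 6.52 CPM in PBS and 5.24, 2.45, 3.45, 0.784 and 3.76 CPM in DMM kidneys and was not called (log2 fold change −0.75 (SE 0.39) over 10 libraries and −1.01 (SE 0.42) over 8). The eotaxin Ccl11, a CCR3 ligand, was at 0.846, 1.704, 1.01, 3.61 and 2.11 CPM in PBS and 0.678, 1.196, 1.08, 0.905 and 1.03 CPM in DMM kidneys. Its groups overlapped in both sets, with a log2 fold change of −0.92 (SE 0.40) over 10 libraries (edgeR adjusted p = 0.436). Ccl1, Ccl24 and Ccl26 were not tested, and Ccl26 had no count.

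Neutrophil-attracting chemokines act through CXCR2. Cxcl3 was at 0.634, 0.705, 0.393, 47.2 and 3.35 CPM in PBS and 2.59, 0.315, 1.47, 33.95 and 2.79 CPM in DMM kidneys, and Cxcl2 at 4.44, 2.47, 4.49, 47.01 and 8.46 CPM and 4.19, 5.98, 7.81, 42.3 and 6.92 CPM. The library numbered 4 was the highest of its group for both genes, in PBS and in DMM. The same held for Ccl3, Ccl4, Ccr1 and Cxcr2, so for 6 of 44 tested members in all. Cxcr2, the receptor of neutrophils, was at 1.005, 1.82, 1.12, 13.3 and 2.76 CPM in PBS and 2.59, 0.755, 2.26, 24.6 and 1.34 CPM in DMM kidneys. The 10 neutrophil markers summed to 27.1, 25.6, 23.2, 116 and 38.6 CPM in PBS and 46.1, 18.9, 28.3, 92.4 and 26.9 CPM in DMM kidneys, led by Csf3r, with 3 of 10 under 10 counts in every library and none at 0 throughout. Of 6 that were tested, 0 were called by edgeR in either set, and 0 had an unadjusted p under 0.05. The part of neutrophils in these values was not tested.

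The fold changes of Cxcl3 and Cxcl1 changed sign between alternatives. That of Cxcl3 was −0.35 (SE 1.40) over 10 libraries and 2.69 without PBS replicate 4, and over the 8 libraries −0.43 (SE 1.53) and 2.61. Cxcl1 was at 10.8, 12.3, 9.65, 14.98 and 21.1 CPM in PBS and 11.5, 19.4, 17.9, 3.68 and 16.6 CPM in DMM kidneys. DMM replicate 4 was its lowest library, and its log2 fold change, 0.00 (SE 0.38) over 10 libraries, was −0.0526 with library size alone and between −0.14 and −0.02 without PBS replicate 1, 2 or 3 or DMM replicate 2, 3 or 5. Over the 8 libraries it was −0.04, but 0.18 without PBS replicate 5 and 0.28 without DMM replicate 4. Cxcl5 was at 9.52, 10.6, 4.21, 14.2 and 22.5 CPM in PBS and 21.1, 6.23, 6.34, 10.01 and 7.89 CPM in DMM kidneys. DMM replicate 1 was high, at the level of PBS replicate 5, and PBS replicate 3 was the lowest of all libraries. The log2 fold change of Cxcl5 was −0.24 (SE 0.45) over 10 libraries, where it became 0.11 without PBS replicate 5, and −0.90 (SE 0.30) over 8 (edgeR adjusted p = 0.112, and 0.0255 without DMM replicate 4). Over the 8 it stayed below 0 in all 15 alternatives, and DESeq2 called it lower (DESeq2 adjusted p = 0.0430). Cxcl15 was not tested.

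**Figure D4:**
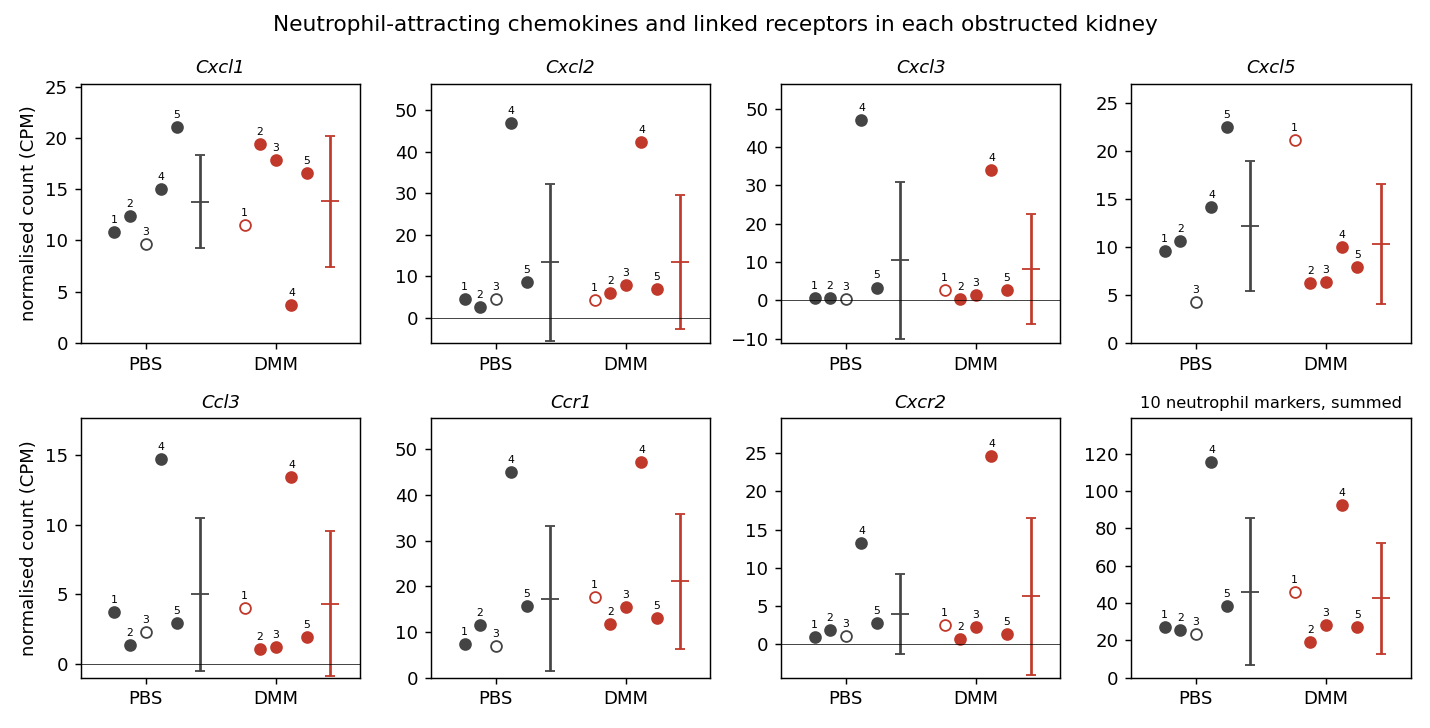
Normalised counts (CPM) of 4 neutrophil-attracting chemokines, Ccl3, Ccr1 and Cxcr2, and the sum of 10 neutrophil markers, in each library, numbered by replicate, with mean and SD over 5 libraries at the right of each group and open circles for PBS replicate 3 and DMM replicate 1. Libraries numbered 4 are the highest of their group for Cxcl2, Cxcl3, Ccl3, Ccr1, Cxcr2 and the marker sum, and DMM replicate 4 is the lowest for Cxcl1.

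Epithelial and mucosal chemokines contained the only member called higher in either set. Ccl28 (ENSMUSG00000074715, chromosome 13, 119623819 to 119654359), an epithelial ligand of CCR10 and CCR3, was at 5.34, 4.29, 10.2, 3.77 and 5.34 CPM in PBS and 5.55, 8.31, 16.5, 18.7 and 11.05 CPM in DMM kidneys. PBS replicate 3 was above DMM replicates 1 and 2, and DMM replicate 1 was near the other controls. Without those libraries the groups did not overlap. For this gene the log2 fold change was 1.06 (SE 0.36) over 10 libraries (edgeR adjusted p = 0.387) and 1.54 (SE 0.28) over 8 (edgeR adjusted p = 0.0135, and 0.0514 without PBS replicate 4). Its level per length stayed low, with medians of 1.09 FPKM in PBS and 2.27 FPKM in DMM kidneys. Proximal tubule markers were high in PBS replicate 3 and DMM replicates 2 to 5, with sums of 4183, 4189.8, 10956, 1554 and 3171 CPM in PBS and 3179, 8755, 7235, 5999.9 and 10756 CPM in DMM kidneys. Kap was the most abundant of these 10 markers, none was at 0, and over the 8 libraries edgeR called 3 of 10 higher (2.73% of all tested genes). The 8 markers of the loop, distal tubule and collecting duct, led by Umod with none at 0, summed to 3126, 2606, 4334, 1978 and 1718 CPM in PBS and 2712, 4187, 4858, 1913 and 5218 CPM in DMM kidneys, and over the 8 libraries edgeR called 3 of 8 higher (2.73%). The part of both lists in the rise of Ccl28 was not tested.

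Cxcl14, a chemokine of epithelium and fibroblasts, was at 154, 176, 109, 231 and 213 CPM in PBS and 206, 152, 102, 69.96 and 152 CPM in DMM kidneys. DMM replicate 4 was its lowest library, and PBS replicate 3 fell among the DMM kidneys. The log2 fold change of −0.38 (SE 0.28) over 10 libraries and −0.71 (SE 0.25) over 8 was not called (edgeR adjusted p = 0.601 and 0.144). Ccl25, the CCR9 ligand, was at 6.34, 6.17, 5.67, 5.58 and 5.29 CPM in PBS and 6.29, 6.42, 5.83, 10.7 and 6.74 CPM in DMM kidneys, with DMM replicate 4 alone above 7 CPM. It overlaps Elavl1 on the opposite strand, which had up to 1239 counts in a library, so its values are uncertain. Ccl20 and Cxcl17 were not called, with log2 fold changes of 0.29 (SE 0.30) and 0.37 (SE 0.51) over the 8 libraries. Ccl27a is present as 3 genes of the same name and overlaps Il11ra1, and is likewise uncertain, with a log2 fold change of −0.25 (SE 0.55) for the copy on chromosome 4.

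The membrane-tethered chemokines were abundant, and neither was called. Cx3cl1, or fractalkine, the ligand of CX3CR1 on mononuclear phagocytes, was at 404, 483, 411, 374 and 426 CPM in PBS and 472, 505, 444, 236 and 399.9 CPM in DMM kidneys. DMM replicate 4 was the lowest of all libraries and the other DMM kidneys lay within or just above the PBS range. DMM over PBS, the log2 fold change was −0.03 (SE 0.19) over 10 libraries and −0.09 (SE 0.22) over 8, and turned to 0.12 and 0.09 without DMM replicate 4 and to 0.03 over the other 9 without PBS replicate 2. Cxcl16, the CXCR6 ligand, was at 200.2, 204, 197, 175 and 235 CPM in PBS and 224, 165, 168, 136 and 149 CPM in DMM kidneys. Over the 8 libraries its groups did not overlap, but the log2 fold change of −0.40 (SE 0.13), and of −0.27 (SE 0.14) over 10, was not called (over 8, edgeR adjusted p = 0.101). Cxcl16 overlaps Zmynd15 on the opposite strand, which had up to 875 counts.

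Among homeostatic chemokines, Cxcl12, the CXCR4 ligand of stroma, was at 150.3, 103, 186, 206 and 127 CPM in PBS and 137, 97.5, 127, 80.03 and 167 CPM in DMM kidneys. The groups overlapped widely, and the log2 fold change was −0.34 (SE 0.23) over 10 libraries and −0.31 (SE 0.27) over 8. The lymphoid chemokines Ccl19 and Ccl21 were at the limit of detection apart from a copy of Ccl21a on the scaffold JH584294.1, at 1.37, 0.0588, 0.674, 13.8 and 10.2 CPM in PBS and 0.863, 0.189, 1.75, 0 and 6.25 CPM in DMM kidneys. That copy was high in PBS replicates 4 and 5 and DMM replicate 5. Since its sequence is shared with the other Ccl21 copies, its counts are uncertain. Cxcl13, the B cell chemokine read by CXCR5, was too low to be tested, with 10, 10, 9, 16 and 11 counts in PBS and 1, 3, 2, 0 and 2 counts in DMM replicates 1 to 5. It was singled out after its values were seen. It was the member whose groups did not overlap over all 10 libraries, where 1.16% of tested genes were lower without overlap. When every gene with at least 1 count was fitted by edgeR, its adjusted p was 0.448 over 10 libraries and 0.0970 over 8. Xcl1, which attracts XCR1-bearing dendritic cells, was at 0.899, 1.23, 1.07, 0.903 and 1.12 CPM in PBS and 1.17, 0.566, 0.1697, 0 and 0.607 CPM in DMM kidneys and was not called. It had at most 21 counts and overlaps Gm20743 on the opposite strand, which had up to 53, so its values are uncertain.

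Receptors numbered 23, with 15 tested, of which edgeR called 3 lower over the 8 libraries, against 3.56% of all tested genes. Over 10 libraries edgeR called 0, with 4 lower at an unadjusted p under 0.05 and 1 called lower by DESeq2, against 4.11% and 0.206% of all tested genes. Ccr7 (ENSMUSG00000037944, chromosome 11, 99144196 to 99155077), which leads dendritic cells and T cells to lymphoid tissue, was at 10.3, 14.4, 10.3, 8.499 and 11.7 CPM in PBS and 8.75, 4.53, 2.43, 2.89 and 4.55 CPM in DMM kidneys. DMM replicate 1 exceeded PBS replicate 4, and the other DMM kidneys were below all controls. Its log2 fold change was −1.25 (SE 0.32) over 10 libraries (edgeR adjusted p = 0.378) and −1.64 (SE 0.27) over 8 (edgeR adjusted p = 0.00963).

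Cxcr4 (ENSMUSG00000045382, chromosome 1, 128588199 to 128592293), the receptor of Cxcl12 on many leukocytes, was at 18.7, 22.1, 13.5, 26.98 and 23.02 CPM in PBS and 13.3, 14.8, 7.64, 6.69 and 10.5 CPM in DMM kidneys. PBS replicate 3 was the lowest control and DMM replicate 2 the highest DMM kidney, and these met over the 10 libraries. For this gene the log2 fold change was −0.98 (SE 0.25) over 10 libraries (edgeR adjusted p = 0.378) and −1.20 (SE 0.26) over 8 (edgeR adjusted p = 0.0262), and the call ended without any of PBS replicates 1, 2, 4 and 5 or DMM replicates 3 and 5 (edgeR adjusted p = 0.0505 to 0.0902). Cxcr3, the receptor of Cxcl9 and Cxcl10, was at 6.98, 6.17, 7.24, 4.14 and 8.57 CPM in PBS and 5.79, 5.91, 1.64, 1.45 and 2.79 CPM in DMM kidneys. DMM replicates 1 and 2 lay within the PBS range and DMM replicates 3 to 5 below it. Cxcr3 was not called over 10 libraries (log2 fold change −0.91 (SE 0.40)) or over 8 (log2 fold change −1.13 (SE 0.45), edgeR adjusted p = 0.183, and 0.0307 without DMM replicate 2).

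Ccr2, Cx3cr1 and Xcr1, receptors of monocytes, resident macrophages and dendritic cells, were not called by edgeR in either set. Ccr2, the receptor of Ccl2, Ccl7 and Ccl12 on inflammatory monocytes, was at 115, 90.3, 84.6, 101 and 116 CPM in PBS and 93.1, 89.9, 53.98, 115 and 64.2 CPM in DMM kidneys. DMM replicate 4 was as high as the highest controls, and DMM replicates 3 and 5 were lower than all of them. The log2 fold change of Ccr2 was −0.29 (SE 0.20) over 10 libraries. It was −0.39 (SE 0.23) over 8 (edgeR adjusted p = 0.3698), and −0.61 without DMM replicate 4 (edgeR adjusted p = 0.0232). Cx3cr1, the fractalkine receptor, was at 117, 88.9, 84.8, 97.5 and 112 CPM in PBS and 109, 92.7, 78.7, 119 and 71.3 CPM in DMM kidneys, with a log2 fold change of −0.09 (SE 0.16) over 10 libraries and −0.20 (SE 0.17) over 8. It overlaps several genes on both strands, among them Csrnp1 and Wdr48, and is uncertain. Xcr1, which marks cross-presenting dendritic cells, was at 6.98, 7.17, 6.79, 6.53 and 8.69 CPM in PBS and 8.87, 4.34, 1.87, 5.37 and 2.73 CPM in DMM kidneys. Its groups did not overlap over the 8 libraries, and its log2 fold change of −1.04 (SE 0.31) was not called by edgeR (edgeR adjusted p = 0.0867, and 0.00689 without DMM replicate 4). DESeq2 called Xcr1 lower over the 8 libraries (DESeq2 adjusted p = 0.0185), and over 10 libraries the edgeR value was −0.64 (SE 0.35). The sum of 8 dendritic cell markers was 229, 220.0, 198, 245 and 237 CPM in PBS and 232, 173, 118, 151 and 133 CPM in DMM kidneys, led by Fscn1, with none at 0 and 1 of 8 called lower over the 8 libraries, against 3.56% of all tested genes. Their part in the values of Ccr7 and Xcr1 was not tested.

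The remaining tested receptors were not called by edgeR. Ccr4, the receptor of Ccl17 and Ccl22, had a fitted value of −2.58 (SE 0.67) over the 8 libraries (edgeR adjusted p = 0.0509), where DESeq2 called it lower (DESeq2 adjusted p = 0.00257). There it had passed the filter through the PBS group alone, with 4 PBS and 0 DMM kidneys over the minimum, so its size is uncertain. Over 10 libraries the value was −1.52 (SE 0.68) and was called by neither, and the gene rested on at most 32 counts in a library. Fitted values over the 8 libraries were −0.95 (SE 0.42) for Cxcr6, −0.78 (SE 0.38) for Ccr9, 0.14 (SE 0.63) for Ccr1 and 0.61 (SE 1.15) for Cxcr2. Cxcr6 and Ccr9 overlap other genes on the opposite strand and are uncertain. Of the atypical receptors, Ackr3, which removes Cxcl12, was at 68.5, 77.98, 90.5, 61.6 and 74.6 CPM in PBS and 80.6, 96.1, 102, 51.9 and 89.03 CPM in DMM kidneys. DMM replicate 4 was its lowest library and DMM replicate 3 its highest. Ackr2, a scavenger of inflammatory CC chemokines, was at 1.48, 1.53, 2.86, 2.603 and 3.11 CPM in PBS and 3.45, 1.89, 1.75, 1.21 and 1.76 CPM in DMM kidneys, with overlapping groups. Their log2 fold changes over the 8 libraries were 0.26 (SE 0.20) and −0.40 (SE 0.32), and that of Ackr4 was −0.40 (SE 0.42). Ackr4, with at most 22 counts, overlaps Acad11 on the opposite strand, which had up to 1942 counts in a library, so its value is uncertain.

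Genes that act below chemokine receptors were taken from a list of 38, of which 36 were found and tested. Over the 8 libraries 12 of 36 were called lower and 0 higher by edgeR, against 3.56% and 2.73% of all tested genes, with 13 and 0 at an unadjusted p under 0.05, against 7.24% and 6.45%. Over 10 libraries edgeR called 0, with 9 lower at an unadjusted p under 0.05, against 4.11%. Rgs1, which shortens G protein signals, was at 5.18, 4.47, 2.81, 6.002 and 6.64 CPM in PBS and 3.64, 1.45, 1.36, 2.41 and 1.27 CPM in DMM kidneys. DMM replicate 1 was within the PBS range and the other DMM kidneys were below it. The log2 fold change of Rgs1 was −1.31 (SE 0.34) over 10 libraries, not called, and over 8 it was −1.78 (SE 0.27, edgeR adjusted p = 0.007596). Ptk2b and Arrb1 had the smallest p values over the 8 libraries among those with fitted values above 0, and neither was called.

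For promoters of the family, RefSeq (GRCm38.p6) gave 250 bases before the start for 46 of the 61 symbols, among them Cxcl9, Cxcl10, Ccl8 and Ccl12. None was found for Ccl2, Ccl5 and Ccl7. They were searched on both strands for the core of the interferon-stimulated response element (ISRE), GAAANNGAAA, the gamma-activated site, TTCNNNGAA, and the kappa B motif. Among 32851 promoters, 2.98%, 7.02% and 7.25% held a match. Among the 46 symbols, 3 held the ISRE core, 4 the gamma-activated site and 11 the kappa B motif in any of their promoters. Some symbols had several promoters, so these counts are per symbol, whereas the shares are per promoter. The promoters of the 4 interferon-induced ligands are shown in gene direction, with matches of any of the motifs in capitals, for the region of Cxcl10 at chr5:92348890-92349139 (minus strand), of Cxcl9 at chr5:92328080-92328329 (minus strand), of Ccl12 at chr11:82101595-82101844 (plus strand) and of Ccl8 at chr11:82114935-82115184 (plus strand).
Cxcl10: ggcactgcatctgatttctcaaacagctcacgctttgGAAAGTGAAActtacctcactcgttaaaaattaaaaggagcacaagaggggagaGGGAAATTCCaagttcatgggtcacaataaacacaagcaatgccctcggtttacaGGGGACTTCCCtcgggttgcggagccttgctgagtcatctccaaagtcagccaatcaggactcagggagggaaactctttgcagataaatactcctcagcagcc
Cxcl9: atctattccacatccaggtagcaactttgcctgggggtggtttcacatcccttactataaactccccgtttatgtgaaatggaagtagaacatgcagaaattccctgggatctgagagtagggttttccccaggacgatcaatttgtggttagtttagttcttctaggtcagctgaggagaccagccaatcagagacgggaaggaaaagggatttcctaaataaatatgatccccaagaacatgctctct
Ccl12: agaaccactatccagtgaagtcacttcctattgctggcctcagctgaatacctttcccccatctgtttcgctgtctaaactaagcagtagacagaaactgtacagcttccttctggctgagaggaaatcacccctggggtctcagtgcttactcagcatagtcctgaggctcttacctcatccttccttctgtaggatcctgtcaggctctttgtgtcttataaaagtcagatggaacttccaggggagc
Ccl8: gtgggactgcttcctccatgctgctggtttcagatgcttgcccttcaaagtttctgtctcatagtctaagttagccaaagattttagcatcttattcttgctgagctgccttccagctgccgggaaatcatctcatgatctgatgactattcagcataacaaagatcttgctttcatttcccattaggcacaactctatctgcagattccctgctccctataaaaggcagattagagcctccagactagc

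The Cxcl10 stretch lies in an intron of Art3 on the opposite strand, and the other stretches lie in no annotated gene. It held 1 ISRE core, GAAAGTGAAA, from 213 to 204 bases before the start, and 4 kappa B matches, overlapping in part, between 159 and 94 bases before it. The stretches of Cxcl9, Ccl12 and Ccl8 held none of these letters. A match says only that the letters are present. The other members with the ISRE core were Cxcl14, with GAAACAGAAA, and Ccl19, with the same 10 letters as Cxcl10.

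Kappa B matches were shared by Cxcl1, Cxcl2 and Cxcl3, neutrophil-attracting genes, of which Cxcl2 and Cxcl3 were both high in the libraries numbered 4. Cxcl1 was instead at its lowest in DMM replicate 4, at 3.68 CPM. Ccl3 and Cxcr2, also highest in the libraries numbered 4, held 0 kappa B matches, and Ccr1 held 1. A link between the matches and these levels was not tested. The 60 bases from 110 to 51 before the start, all on the plus strand, are shown with the kappa B matches in capitals, for Cxcl1 at chr5:90891135-90891194, Cxcl2 at chr5:90903789-90903848 and Cxcl3 at chr5:90785991-90786050.
Cxcl1: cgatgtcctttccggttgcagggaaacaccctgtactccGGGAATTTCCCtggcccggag
Cxcl2: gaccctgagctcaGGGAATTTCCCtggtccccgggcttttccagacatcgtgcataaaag
Cxcl3: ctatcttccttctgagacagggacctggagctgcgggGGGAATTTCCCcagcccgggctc

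All of these held GGGAATTTCC followed by a C, which gives overlapping matches on the 2 strands. The match began 71 bases before the start in Cxcl1, 97 in Cxcl2 and 73 in Cxcl3.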

How the data were processed

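Bulk RNA-seq of 5 PBS-treated and 5 DMM-treated UUO kidneys was analysed from the table that the authors deposited. Per the submitters' processing notes, reads were aligned with HISAT2 2.0.5, and per the methods to mm10. The counting tool, annotation and use of strand were not given in the sources used here. The deposited counts are whole reads per gene, without normalization. The deposited FPKM values divide these counts by gene length and depth and were used only to order levels. The authors also deposited group means, a signal in normalized counts, whose weights were read to find the libraries in them. The log2 fold change and p-value columns of the authors' own comparison were not used. All 67 positions equal those of GENCODE M21.

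Counts were tested for all genes with edgeR 4.0.16 (filterByExpr, TMM, quasi-likelihood F test, R 4.3.3), and p-values were adjusted over all tested genes. DESeq2 1.42.0 was an alternative, as were other scalings, filters and lists, the replicate number as a block, and each library left out. The steps were tested on simulated data. Members and lists were chosen with earlier results of these data known. Named members are the interferon-induced list and, in each role, those of smallest p in either set and of highest PBS FPKM; others are named to complete a role. Results of 2 genes are not reported, though counts include them. Of the promoters read, those shown were chosen after the motif search. Standard errors were taken from the fold change and F.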

Additional observations from a re-analysis of the deposited data

Results flagged for a closer look

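Among the members described by rule, 64 groups of 5 libraries were examined for a library far from the rest, and 8 such values were found. Cxcl2, Ccl3, Ccr1 and Cxcr2 were not among the members examined. For normally distributed values, the limit used would flag about 1 in 20 groups by chance. These values were not transformed and some rest on few counts, so the 8 cannot be judged against that rate. Cxcl10 stood at 138 CPM in DMM replicate 1, against 16.8 to 26.7 CPM in the other DMM kidneys. Cxcl5 was at 21.1 CPM in the same library, with 6.23 to 10.01 CPM in the others. For Cxcl3, PBS replicate 4 was at 47.2 CPM against 0.393 to 3.35 CPM, and DMM replicate 4 at 33.95 CPM against 0.315 to 2.79 CPM. PBS replicate 4 was also low for Ccl22, at 5.79 CPM, where the other controls held 13.4 to 16.2 CPM. DMM replicate 4 was high for Ccl25, at 10.7 CPM against 5.83 to 6.74 CPM. Ccl28 was at 10.2 CPM in PBS replicate 3, against 3.77 to 5.34 CPM in the other controls. The scaffold copy of Ccl21a reached 6.25 CPM in DMM replicate 5, against 0 to 1.75 CPM.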

How the results depend on the processing

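Direction was the same under every alternative tried for the 7 interferon-induced ligands and for Ccl28, over 10 and over 8 libraries. Members called over 10 libraries numbered 0 with edgeR, 2 with DESeq2, and 0 to 8 with a library left out. Over 8 libraries the 11 calls became 17 with DESeq2, 5 to 20 with a library left out, and 20 when both libraries numbered 4 were left out, an alternative chosen after seeing the data. The share of all tested genes under that last alternative is not given here, so its count describes the members alone. Without DMM replicate 4 alone, edgeR called 14.3% of all tested genes. The median of the other members over 10 libraries was −0.55 when every gene with at least 1 count was fitted. Over 8 libraries, from −0.43, it moved to −0.68 with library size alone, −0.93 with every gene of at least 1 count, −0.57 with at least 10 counts in 4 or more libraries, −0.78 with the narrow interferon-induced list, and between −0.89 and −0.52 with a library left out. Library size alone moved the median of all genes over 8 libraries from 0.02 to −0.09, and changes under it are relative to that. These causes were not tested.

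The replicate numbers were not taken to pair the mice in the main fits. Same-numbered libraries had correlations of −0.287 to 0.406, of which 3 were over 0.1, and 3 of 10 libraries were closest to their own number. With the replicate block, 0 members were called over 8 libraries by edgeR and 17 passed an unadjusted p under 0.05, and over 10 libraries 0 and 17. The shares of all tested genes under the block are not given here, so these counts describe the tested members and support nothing further. Under the replicate block over 10 libraries, Cxcl1 turned to −0.0998 and Cxcl3 to 0.33.

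Among named members, directions turned for Cxcl1, Cxcl3, Cx3cl1, Cxcl5 and Cxcl12. Over 10 libraries Cxcl1 was −0.0526 with library size alone, and with both libraries numbered 4 left out Cxcl3 was 0.51 and Cx3cl1 0.0834. With a library left out, the range was −0.144 to 0.248 for Cxcl1, −2.54 to 2.69 for Cxcl3, −0.106 to 0.117 for Cx3cl1 and −0.68 to 0.108 for Cxcl5. Over 8 libraries, both numbered 4 left out, Cxcl1 was 0.287, Cx3cl1 0.0380 and Cxcl12 0.0424, and with a library left out the range was −0.220 to 0.281 for Cxcl1, −3.08 to 2.61 for Cxcl3 and −0.233 to 0.0920 for Cx3cl1. Their cause was not tested. Members with few counts, such as Ccr4, Xcl1 and Cxcl13, are limited by depth, and the sets of 10 and 8 libraries share 8 and are not independent.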

Other observations

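Family members outside the name rule were read as well. Ccrl2, an atypical receptor for chemerin, was at 12.3, 12.3, 12.9, 13.5 and 16.3 CPM in PBS and 13.3, 6.04, 5.77, 6.82 and 4.79 CPM in DMM kidneys. DMM replicate 1 was within the PBS range and the other DMM kidneys lay below it. Ccrl2 fell over the 8 libraries, with a log2 fold change of −1.21 (SE 0.17, edgeR adjusted p = 0.00555), and over 10 libraries the value of −0.87 (SE 0.26) was not called. The platelet chemokine Ppbp varied from 0.898 to 47.98 CPM among PBS kidneys and from 0.905 to 28.7 CPM among DMM kidneys, and was not called. Pf4, likewise of platelets, was not called either, with a log2 fold change of −0.69 (SE 0.40) over the 8 libraries.

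Other cells were read from their marker lists over the 8 libraries. Of 9 NK cell markers, 1 was called lower, Klrk1, against 3.56% of all tested genes. Klrk1 was at 10.7, 7.99, 8.25, 8.82 and 12.04 CPM in PBS and 7.46, 5.03, 2.04, 3.44 and 2.55 CPM in DMM kidneys. Of the 9 NK cell markers, 8 had fitted values below 0 and 1 above. The value above 0 was that of Klrb1c, at 0.04 (SE 0.56). Ncr1, at −0.31 (SE 0.66), and Eomes, at −0.32 (SE 0.31), were below 0 by less than or about their standard error. Of 7 fibroblast markers 2 were called lower, Postn and Col1a2, against 3.56% of all tested genes. Of 7 endothelial markers 0 were called by edgeR, with 0 at an unadjusted p under 0.05, and of 5 podocyte markers likewise 0 and 0. Of 8 markers of the loop, distal tubule and collecting duct 3 were called higher, Slc12a1, Slc12a3 and Calb1, against 2.73% of all tested genes. The median log2 fold change of these 8 markers was 0.90 over the 8 libraries. B cell markers did not move together. Of 6 tested, 4 had fitted values below 0, and Pax5, at −1.10 (SE 0.32), passed an unadjusted p under 0.05 but was not called (edgeR adjusted p = 0.0748). The B cell marker called higher was Cr2, 1 of 6 tested, against 2.73% of all tested genes. Cr2 was at 1.43, 1.704, 2.47, 1.54 and 1.47 CPM in PBS and 1.29, 2.52, 2.89, 2.83 and 3.095 CPM in DMM kidneys. The B cell chemokine Cxcl13 was lower in every DMM kidney than in any PBS kidney, at 0 to 3 counts against 9 to 16. Over 10 libraries 1.16% of tested genes were lower without overlap. Cxcl13 was too low to be tested and was singled out after its values were seen. When every gene with at least 1 count was fitted by edgeR, its adjusted p was 0.448 over 10 libraries and 0.0970 over 8.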
